A study of Homo sapiens with 8 samples.

Results

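The 4 polysome RNA libraries of a fibrillarin study in OCI-AML3 cells, a human acute myeloid leukaemia line, were compared by the number that ends their titles, 2 (CT2 and U2) against 1 (CT1 and U1). They are 4 of the 8 libraries of the series. The split was prompted by the FBL counts: CT2 and U2 were chosen by their low FBL level, and the labels leave the meaning of the title number unstated. The number does not follow the genotype label, which is wild type for both CT libraries and FBL knockdown for both U libraries. The protocol's short hairpin arms are shCT and shFBL, and the titles do not say which arm each library came from. The groups are therefore named by their number throughout, each with 1 CT and 1 U library, and the CT or U label was kept as a block.

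All libraries came from cells infected with a hairpin vector and given cycloheximide at 100 µg/mL for 15 min, a drug that stalls elongating ribosomes on their mRNA. Polysome RNA was taken from sucrose gradient fractions of the lysate, and input RNA from the same lysates before the gradient. Whether these are separate cultures cannot be read from the labels. With the label as a block, each p-value rests on how far the number difference varies between the CT pair and the U pair. That spread may be technical. With 2 libraries of each number, the tests below rest on a model fitted across all genes.

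FBL encodes fibrillarin, the enzyme subunit of the box C/D class of small nucleolar ribonucleoproteins. Guided by box C/D snoRNAs, it adds methyl groups to the ribose of ribosomal RNA, and with U3 snoRNA these particles also take part in early processing of the ribosomal RNA precursor. NOP56, NOP58 and SNU13 are the other proteins of the particle core. When ribosome production is disturbed, free ribosomal proteins such as RPL11 can bind MDM2, the ubiquitin ligase of p53, and p53 target genes are then a common readout. Polysome RNA reports the mRNAs that carry several ribosomes, so a difference there combines mRNA level and ribosome loading.

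Depth was 38.5, 38.5, 40.8 and 22.2 M gene counts for CT1, U1, CT2 and U2, and U2 was the shallowest. Levels below are counts scaled to library size and by TMM, per 1e6 counts (CPM), always in the order CT1, U1, CT2, U2. The marker sums in this paragraph are scaled to library size alone, without TMM. Markers of a myeloid cell summed to between 9508 and 11192 CPM in the 4 libraries. The 20 erythroid and megakaryocyte markers summed to 47.3 to 64.7 CPM, the 18 lymphoid markers to 66.8 to 122 CPM and the 12 epithelial and fibroblast markers to 3.16 to 4.92 CPM. GATA1, CD3D, CD3E, MS4A1 and EPCAM were at 0 in all 4. Of the myeloid markers, FCN1 was at 0 in CT1, U1 and U2, and MPO was at 0 in U2. CT2 had the largest share of reads mapped to more than 1 place, 4.95% against 3.41% to 3.75% in the others, and U2 the largest share of mitochondrial genome counts, 0.74% against 0.2% to 0.344%. The part of these shares in the results was not tested except where values without a library are given.

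FBL (ENSG00000105202, GRCh38 chromosome 19, 39834458 to 39846414) had 444, 459, 146 and 158 CPM. CT2 and U2 were low and the groups did not overlap. The mean was 451 ± 10.8 CPM (SD, n = 2) in number 1 and 152 ± 8.50 CPM (SD, n = 2) in number 2, which is 67.2% lower within CT and 65.7% lower within U. In input RNA, FBL was 64.4% lower within CT and 66.6% lower within U. As these counts picked the groups, FBL is described with no test and left out of every count below.

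In the number 2 libraries, 6 of 26 p53 target genes, the S100A8 and S100A9 calgranulins, complement C3 and the secreted glycoprotein CHI3L1 were higher, and the cytokine signalling inhibitors SOCS3 and SOCS1, the chemokine CCL5, the Wnt receptor FZD4 and the transcription factor ZBTB32 were lower. Among 14443 genes tested, 54 passed an adjusted p of 0.05 as higher (0.374%) and 26 as lower (0.18%) by edgeR's quasi-likelihood test. Of these 80, 77 are protein coding, 7 lie in the mitochondrial genome, and all 80 had the same direction within CT and within U. The groups did not overlap for 71 of the 80. The 80 were picked by the blocked fit on the same libraries, so both counts follow partly from that choice. Over all genes tested, the number groups did not overlap for 16.2% with number 2 higher and for 16.6% with number 2 lower.

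The number of calls depended strongly on the fit. Without the CT or U block no gene passed and 560 had an unadjusted p under 0.05, against 1199 with it, while DESeq2 with the block called 125. RLE scaling left 10 calls, and an offset for GC content and length left 20 higher and 16 lower. Fits that left out 1 library had to drop the block as well, so both choices changed in them and in every value given below without a library. Without U2, 48 genes were called and 12 of them were among the 80; without CT2, 18 were called and 8 were among the 80; without CT1 or without U1, 0 were called, with 349 and 398 genes at an unadjusted p under 0.05.

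**Figure D1:**
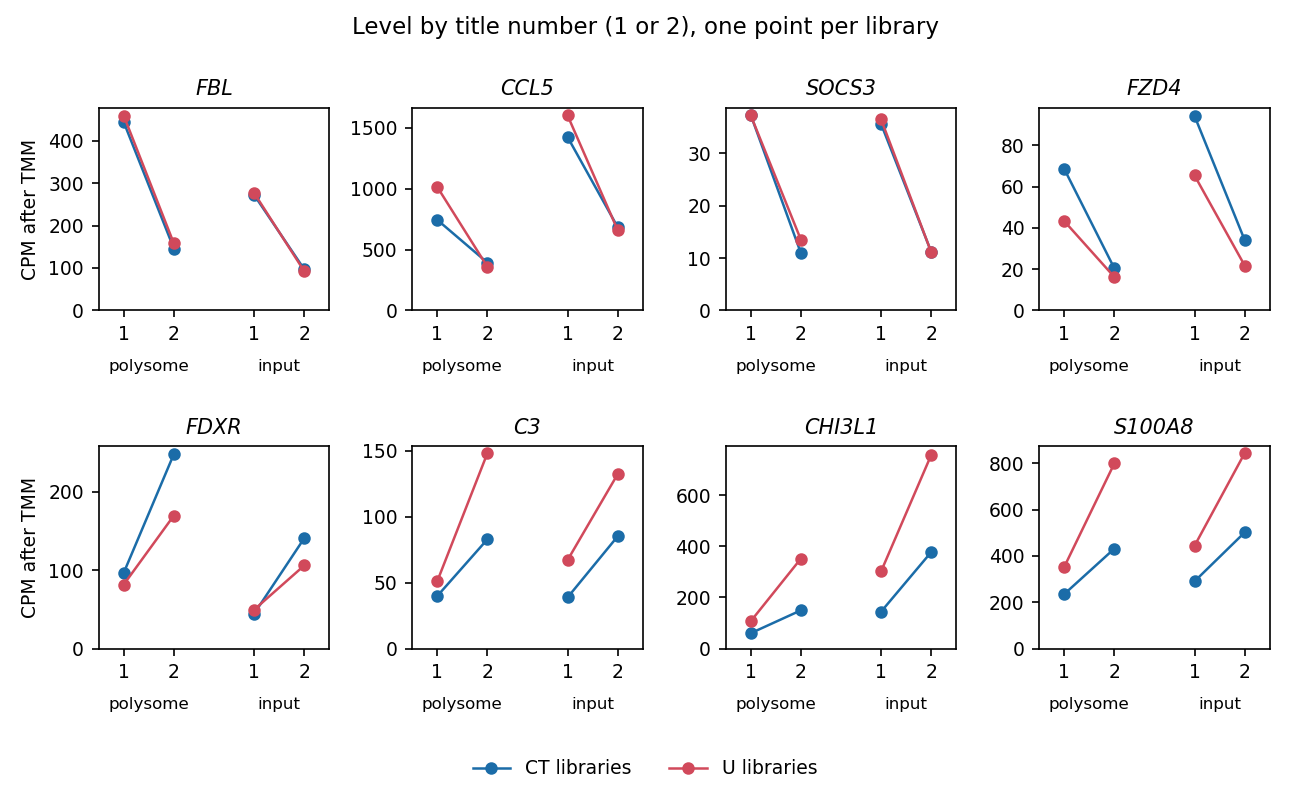
Level in CPM after TMM (y axis, from 0) against the title number (x axis) for 8 genes in polysome and input RNA, with 1 point per library and a line joining libraries of the same title label. FBL, CCL5, SOCS3 and FZD4 were lower in both number 2 libraries and FDXR, C3, CHI3L1 and S100A8 higher, in both fractions; FBL picked the groups and was not tested.

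CHI3L1, a chitinase-like protein secreted by macrophages and neutrophils, had 59.9, 107, 149 and 352 CPM. U2 was by far the highest, U1 was above CT1, and the number groups did not overlap. The log2 difference of number 2 minus number 1 was 1.52 ± 0.13 (SE, edgeR adjusted p = 1.71e-05). C3, the central component of the complement cascade, had 39.8, 50.9, 82.8 and 148 CPM. Both number 2 libraries lay above both number 1 libraries, with a log2 difference of 1.30 ± 0.17 (edgeR adjusted p = 9.39e-04).

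S100A8 and S100A9 encode the 2 chains of calprotectin, a calcium-binding protein of neutrophils and monocytes. S100A8 had 235, 352, 431 and 799 CPM, and S100A9 had 97.6, 201, 190 and 415 CPM. For S100A8 both number 2 libraries were highest, whereas for S100A9 CT2 lay below U1, so those groups overlapped and the difference shows within each label. The log2 differences were 1.03 ± 0.11 for S100A8 (edgeR adjusted p = 7.41e-05) and 1.00 ± 0.12 for S100A9 (edgeR adjusted p = 2.41e-04). They were the only 2 of 40 myeloid markers tested that were called. The myeloid list as a whole had a median log2 difference of 0.098. Of its 40 members, 9 did not overlap with number 2 higher (22.5%) and 1 with number 2 lower (2.5%). Over all genes these shares were 16.2% and 16.6%. The median of the myeloid list was −0.18 without U2 and 0.40 without CT2.

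SOCS3 and SOCS1 are feedback inhibitors of JAK-STAT cytokine signalling. SOCS3 had 37.4, 37.3, 10.98 and 13.5 CPM, and SOCS1 had 52.6, 57.0, 23.9 and 25.0 CPM. Both were low in CT2 and U2 with no overlap, and within each group the libraries lay close together. SOCS3 fell by 1.62 on the log2 scale (SE 0.24, edgeR adjusted p = 0.00365) and SOCS1 fell by 1.16 (SE 0.19, edgeR adjusted p = 0.00954).

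CCL5, a chemokine that attracts T cells and monocytes, had 744, 1015, 392 and 359 CPM. Its groups did not overlap, and it fell by 1.21 on the log2 scale (SE 0.12, edgeR adjusted p = 3.76e-05). CCL3L3, also a chemokine, had 52.5, 53.4, 22.2 and 20.1 CPM and fell by 1.32 (SE 0.20, edgeR adjusted p = 0.00479). Reads of CCL3L3 can be shared with its near-identical copies, so its value is uncertain.

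ZBTB32, a zinc finger repressor known from lymphocytes, had 17.5, 18.2, 3.27 and 5.75 CPM and was low in both number 2 libraries (log2 difference −2.04 ± 0.35, edgeR adjusted p = 0.0108). FZD4, a Frizzled receptor, had 68.7, 43.3, 20.4 and 16.2 CPM (log2 difference −1.59 ± 0.21, edgeR adjusted p = 9.7e-04). The number 2 libraries were lower without overlap in both genes. FZD4 overlaps PRSS23, and the sources used here do not state whether counting used strand. The same limit holds for other named genes that overlap an annotated gene. Among them are TP53I3, CYGB, IL21R, PNISR, ANKRD33B, MT-CO3 and MT-ND4.

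The other large decreases were KCNN1, a calcium-activated potassium channel, at 23.4, 23.98, 10.1 and 7.04 CPM, and ASGR2, a subunit of the asialoglycoprotein receptor, at 172, 173, 96.2 and 88.9 CPM. Both were without overlap, and their log2 differences were −1.48 ± 0.29 and −0.90 ± 0.13 (edgeR adjusted p = 0.026 and 0.00325). ANKRD33B (−1.58 ± 0.34), BIN1 (−0.89 ± 0.18), a membrane-bending adaptor, and G0S2 (−0.87 ± 0.19), an inhibitor of triglyceride lipase, also passed, with edgeR adjusted p of 0.0388, 0.026 and 0.0453. SLX1B, part of a structure-specific nuclease, had the largest fitted decrease among the called genes, from 33.6 and 55.6 CPM to 1.11 and 6.30 CPM. It has a near-identical copy on the same chromosome and overlaps BOLA2, so its value is uncertain.

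Among the other large increases, NECTIN4, a cell adhesion molecule, had 2.22, 2.77, 16.8 and 7.36 CPM (log2 difference 2.17 ± 0.45, edgeR adjusted p = 0.0352). CYGB, the haem protein cytoglobin, had 5.78, 5.49, 18.1 and 19.5 CPM (1.74 ± 0.32, edgeR adjusted p = 0.0165). IL21R, the receptor of interleukin 21, had 8.85, 7.88, 26.3 and 20.1 CPM (1.46 ± 0.28, edgeR adjusted p = 0.0253). Each of these was higher in both number 2 libraries without overlap. PNISR, a splicing-associated protein, had 7.43, 4.46, 30.1 and 10.3 CPM (1.62 ± 0.33, edgeR adjusted p = 0.0283), with CT2 far above the rest. Its log2 difference in input RNA was 0.09. The polysome minus input difference of 1.52 ± 0.31 did not pass (edgeR adjusted p = 0.182).

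**Figure D2:**
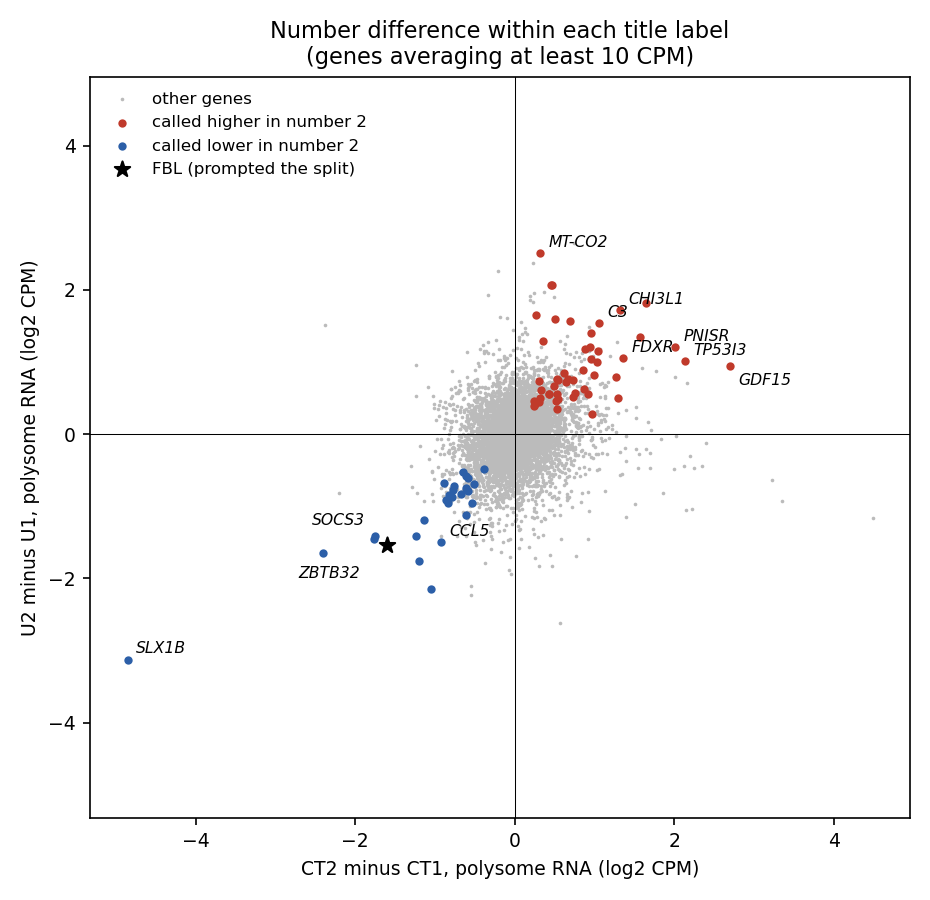
Each point is a gene averaging at least 10 CPM in polysome RNA, with the log2 difference CT2 minus CT1 on the x axis and U2 minus U1 on the y axis. Called genes lie in the quadrants where both differences have 1 sign, while over all 7525 genes Pearson's r was 0.22; MT-CO2 differed mainly within U and GDF15 mainly within CT.

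Over the 7525 genes that averaged at least 10 CPM, the number differences within CT and within U had the same sign for 4446 (59.1%), with Pearson's r = 0.22 across genes. Genes are not independent replicates, and each difference rests on 1 pair of libraries. The median absolute log2 difference was 0.18 for CT1 against CT2 and 0.23 for U1 against U2, and 0.22 for CT1 against U1 and 0.29 for CT2 against U2. The polysome libraries were thus no further apart by number than by label.

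The p53 target genes were the nuclear gene list with most calls in 1 direction. Of 26 listed and tested, 6 rose and 0 fell, and 15 (57.7%) did not overlap with number 2 higher, beside 16.2% of all genes. Their median log2 difference was 0.51, against −0.0023 for all genes tested, and it was 0.80 within CT and 0.37 within U. Their median kept its sign in all 15 alternative fits, from 0.30 to 0.84. The calls did not: 0 members passed without CT2, without CT1, without U1, without the block or with all 8 libraries in 1 fit, 1 passed under RLE scaling, and 5 passed without U2.

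The called members were GDF15, TP53I3, FDXR, BBC3, CDKN1A and PHLDA3; the last pair lay outside the naming rule and was added after the values were seen. CDKN1A, the p21 inhibitor of cyclin-dependent kinases, had 118, 140, 289 and 198 CPM. Both number 2 libraries were higher, CT2 most, and the log2 difference was 0.90 ± 0.16 (edgeR adjusted p = 0.0121). BBC3, the pro-apoptotic BH3 protein PUMA, had 64.0, 42.4, 155 and 73.2 CPM. CT2 stood far above the rest, and U2 exceeded CT1 by little (log2 difference 1.03 ± 0.16, edgeR adjusted p = 0.00649).

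FDXR, a mitochondrial reductase that passes electrons to ferredoxin, had 96.5, 81.5, 248 and 169 CPM. Its number 2 libraries were both higher (1.21 ± 0.13, edgeR adjusted p = 1.47e-04). TP53I3, an oxidoreductase also called PIG3, had 17.6, 19.8, 77.5 and 40.1 CPM (1.58 ± 0.25, edgeR adjusted p = 0.00551). GDF15, a secreted stress cytokine, had 7.46, 13.4, 48.6 and 25.8 CPM (1.82 ± 0.34, edgeR adjusted p = 0.0173). In both, CT2 was the highest library and U2 the second. PHLDA3, an inhibitor of AKT signalling, had 209, 164, 396 and 242 CPM (0.74 ± 0.12, edgeR adjusted p = 0.00718), again with CT2 the highest.

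MDM2 and the pro-apoptotic BAX also lay outside the naming rule and were named with their values known. Their log2 differences (0.34 and 0.34) did not pass the test, and in both genes each label differed in the upward direction. Not all members went up: over the list the log2 differences ranged from −1.53 to 1.82. In input RNA from the same lysates the p53 list had a median log2 difference of 0.65, with 18 of 26 members called higher and 0 lower. That input fit called 2.67% of 15542 genes as higher and 2.48% as lower, and its p-values rest on a fitted trend of the spread with no gene-specific part and may be too small. Without its CT or U block the input fit called 6 genes.

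**Figure D3:**
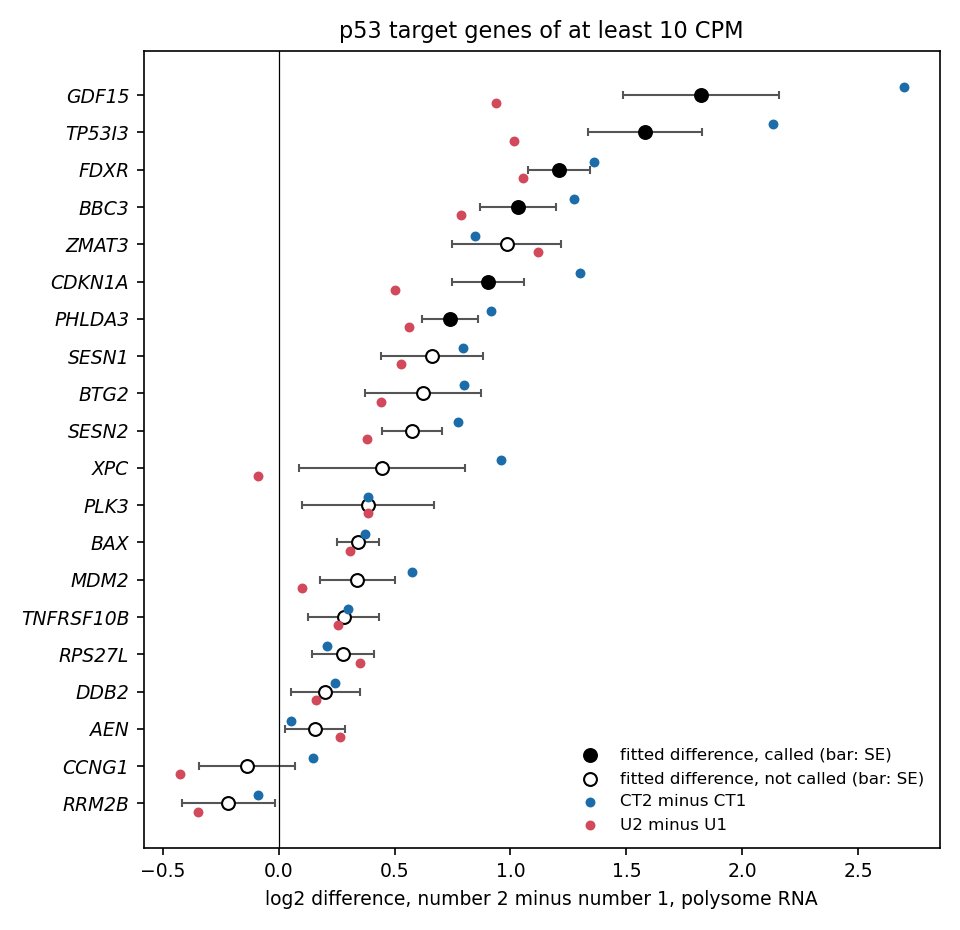
Log2 difference of number 2 minus number 1 in polysome RNA (x axis) for p53 target genes (y axis) whose higher group reached 10 CPM. Large circles give the fitted difference with its SE, filled where called, and small points give CT2 minus CT1 and U2 minus U1; the 6 called members range from 0.74 to 1.82.

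The proximal promoter is printed for GDF15 together with CHI3L1 and S100A9, 3 genes called higher, because each held a TATA box motif. Shown are the 100 bases before the annotated start on the gene's strand, 5′ to 3′, from RefSeq (GRCh38.p14), with TATAAA in capitals. They lie at chr19:18386058-18386157 (plus strand) for GDF15, chr1:203186705-203186804 (minus strand) for CHI3L1 and chr1:153357754-153357853 (plus strand) for S100A9.
GDF15: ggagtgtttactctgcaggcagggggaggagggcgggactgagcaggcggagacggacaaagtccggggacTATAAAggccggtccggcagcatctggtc
CHI3L1: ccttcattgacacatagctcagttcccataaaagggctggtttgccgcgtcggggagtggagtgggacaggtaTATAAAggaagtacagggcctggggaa
S100A9: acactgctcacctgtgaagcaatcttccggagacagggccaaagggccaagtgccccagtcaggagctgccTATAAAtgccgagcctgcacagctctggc
The motif ended 23 bases before the start in GDF15 and S100A9 and 21 bases before it in CHI3L1. Searched on both strands of the 250 bases before each start, TATAAA occurred in 4 of 33 windows of genes called higher (12.1%) and in 4 of 23 of those called lower (17.4%), against 562 of 10550 windows of tested genes (5.33%) and 3040 of 27305 in all (11.1%). The letters TTCNNNGAA of a STAT site occurred in 2 of the 33 (6.06%) and 2 of the 23 (8.7%), against 5.69% of tested genes, and those of a kappa B site, written as GGGA, any 2 bases and TTCC, in 0 of each, against 1.49%. A pair of p53 half-sites, written as CATG, any 6 bases and CATG, occurred in 0 of 21 windows of p53 targets and 0.142% of tested genes; no match says only that these letters are not in the window. The motifs were chosen after the called genes were known, and the shares are a description.

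Transcripts of the mitochondrial genome were higher in number 2, above all in U2. Mitochondrial mRNAs are translated inside the organelle by its own ribosomes, so their amount in a cytosolic polysome fraction is small. Of 13 genes tested, 5 were called higher and 0 lower, and 12 (92.3%) did not overlap, beside 0.374% called higher and 16.2% without overlap and higher over all genes. The median log2 difference was 1.05, made of 0.24 within CT and 1.95 within U. In input RNA the median was 0.042.

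MT-CO3, a subunit of cytochrome c oxidase, had 538, 420, 743 and 1766 CPM (log2 difference 1.27 ± 0.22, edgeR adjusted p = 0.013). MT-CO2, also of that complex, had 246, 172, 308 and 975 CPM (1.41 ± 0.30, edgeR adjusted p = 0.0444), and MT-ND4, of complex I, had 174, 122, 238 and 513 CPM (1.26 ± 0.23, edgeR adjusted p = 0.0179). In each, U2 was far above the other 3 libraries, CT2 was second and U1 was lowest. MT-ND6, the complex I subunit read from the opposite strand, had 45.5, 22.8, 64.5 and 68.9 CPM (1.05 ± 0.23, edgeR adjusted p = 0.0453), and there U2 and CT2 were close. Without U2, 0 of the 13 genes were called and the median was 0.56; without CT2, 9 were called and the median was 1.62. RLE scaling and limma-voom called 0 of them, DESeq2 called 1, and all 13 had an unadjusted p under 0.05.

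**Figure D4:**
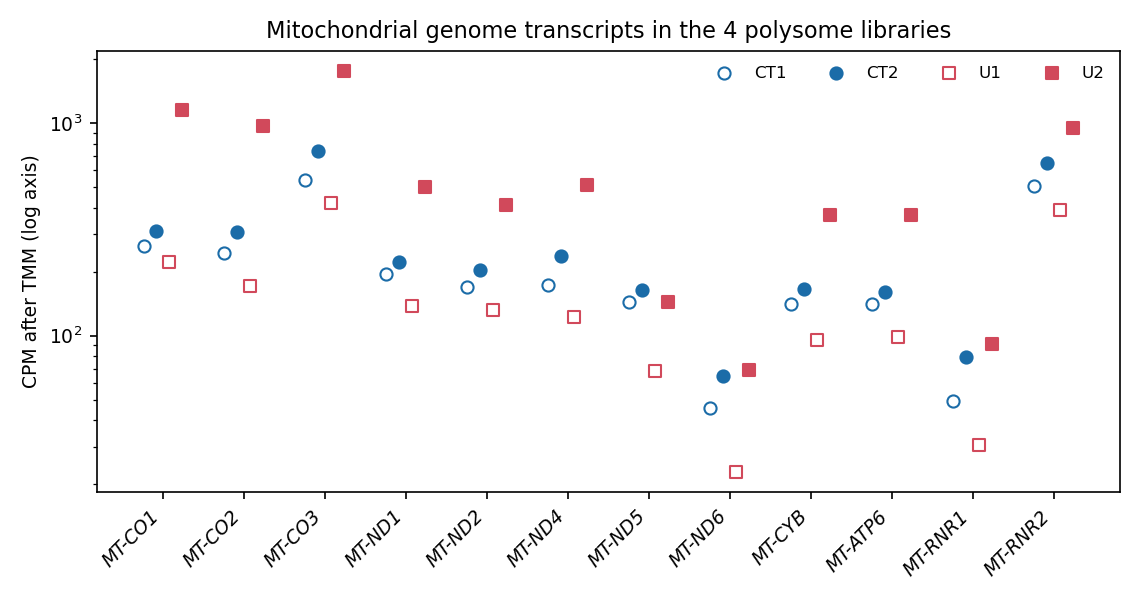
Level in CPM after TMM (log y axis) of 10 mitochondrial mRNAs and the ribosomal RNAs MT-RNR1 and MT-RNR2 (x axis) in the 4 polysome libraries; open symbols are number 1 and filled symbols number 2. U2 lies highest for all genes shown other than MT-ND5, where CT2 is higher, and U1 lowest throughout.

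The number difference itself was compared between polysome and input RNA in a fit of all 8 libraries that blocked on the lysate. Of 16502 genes tested, 6 (0.0364%) differed between fractions, all with a larger difference in polysome RNA, and 640 had an unadjusted p under 0.05. DESeq2 called 5, of which 3 were among the 6, and without the lysate block edgeR called 0, with 684 at an unadjusted p under 0.05. Of the 6, 3 come from the mitochondrial genome, MT-RNR1, MT-RNR2 and MT-ND2, and 1 is HMGB2, a chromatin protein; the other 2, TIGD1 and the unnamed ENSG00000274276, were below 10 CPM in both polysome groups. These were named after their values were seen.

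HMGB2 had 246, 344, 357 and 481 CPM in polysome RNA, with both number 2 libraries above the others, and 729, 722, 658 and 649.7 CPM in input RNA in the same order, with both number 2 libraries below the others. The polysome minus input log2 difference was 0.64 ± 0.11 (edgeR adjusted p = 0.0484). For most of the 80 called genes, input RNA differed in the same direction: 72 of 80 did, and 64 of these were also called there. Over all genes the input fit called 2.67% as higher and 2.48% as lower, and 6 genes without its label block. The share of all genes with the same direction in both fractions was not counted. Input and polysome libraries share their lysates, so input RNA is a second measurement and not a second culture. SOCS3 fell by 1.69 in input RNA, CCL5 fell by 1.17 and ZBTB32 fell by 2.204, close to their polysome differences of −1.62, −1.21 and −2.04.

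Of 19 small nucleolar ribonucleoprotein genes tested beside FBL, edgeR called 0, DESeq2 called 1 and 1 had an unadjusted p under 0.05 in the edgeR test. In the box C/D core, NOP58 had 54.0, 45.5, 113 and 64.7 CPM, with CT2 far above the rest (log2 difference 0.79 ± 0.18, edgeR adjusted p = 0.0529). NOP56 had 130, 135, 151 and 169 CPM (0.27 ± 0.13) and SNU13 had 316, 341, 284 and 334 CPM (−0.09 ± 0.11). NOP56 and NOP58 host snoRNAs in their introns, and their input differences were −0.42 and −0.18. The direction in polysome RNA was thus upward for both, and in input RNA downward. The polysome minus input log2 difference was 0.67 ± 0.12 for NOP56 and 0.95 ± 0.16 for NOP58. Neither passed the test of that difference (edgeR adjusted p = 0.0957 and 0.0512).

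Of the 10 box C/D assembly factors, RUVBL1 (−0.05) and RUVBL2 (−0.05), the ATPases of the R2TP complex, PIH1D1 (−0.04) and RPAP3 (−0.42) of the same complex, and the chaperones HSP90AA1 (0.11) and HSP90AB1 (0.00) did not pass. ZNHIT3 (0.17) and NOPCHAP1 (0.02) did not pass either. ZNHIT6 had 7.48, 7.52, 38.3 and 5.52 CPM and NUFIP1 at most 3.76 CPM, each highest in CT2 alone. HSP90AA1 likewise had 1793 CPM in CT2 and 981 to 1250.1 CPM in the others.

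The box H/ACA proteins, which guide pseudouridine formation, showed no call among 6. DKC1, the pseudouridine synthase, had 181, 163, 194 and 202 CPM (0.20 ± 0.12), NOP10 83.3, 96.6, 64.6 and 84.8 CPM (−0.28 ± 0.15), GAR1 41.6, 29.5, 41.6 and 34.6 CPM (0.11 ± 0.20) and NHP2 18.5, 26.1, 21.3 and 21.6 CPM (−0.03 ± 0.25). Their groups overlapped except for DKC1. The assembly factors SHQ1 (−0.26) and NAF1, which was at or under 4.00 CPM, did not pass.

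Among the ribosome production and translation genes described next, edgeR called EIF5B alone. Over all 14443 genes tested, 0.374% were called higher and 0.18% lower, and 1199 genes had an unadjusted p under 0.05. Of 51 proteins of the U3 particle and early processome none was called (median log2 difference −0.026), and of 58 large-subunit processing factors none (median −0.044). Among 12 nucleolar scaffold proteins none passed; over these 117 genes, 13 had an unadjusted p under 0.05 and DESeq2 called 1. NCL, nucleolin, had 1033, 774, 2127 and 857 CPM, with CT2 standing alone (0.60 ± 0.14, edgeR adjusted p = 0.0624). Proteins of the large ribosomal subunit (47 tested) had a median of 0.088 with a range from −0.25 to 0.27, and the 33 small-subunit proteins a median of 0.094 with a range from −0.21 to 0.48. RPL11, at 696, 782, 770 and 1030.5 CPM, had a difference of 0.27 ± 0.09 that did not pass. Of these 80 ribosomal protein genes edgeR called 0 and DESeq2 called 1. In the edgeR test 19 had an unadjusted p under 0.05, a larger share than over all genes. The medians of both subunit lists turned slightly negative in 1 of the 15 alternative fits.

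EIF5B, the initiation factor that joins the ribosomal subunits, was the only 1 of 36 initiation factors called. It had 281, 180, 551 and 217 CPM, and U2 lay below CT1, so the groups overlapped (0.62 ± 0.14, edgeR adjusted p = 0.0499). Its log2 difference was 0.97 within CT and 0.28 within U. In fits that left out a library and dropped the label block, it was −0.094 without CT2 and 1.26 without U2. Of 14 elongation and termination factors, 20 aminoacyl-tRNA synthetases and 77 mitochondrial ribosomal proteins, none was called. Of 22 mRNAs listed for reported internal ribosome entry none was called either, with a median of −0.19. In each direction 5 members were without overlap (22.7%), beside 16.2% higher and 16.6% lower over all genes. Over these 133 genes, 15 had an unadjusted p under 0.05 in the edgeR test, and DESeq2 called 0.

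Interferon-stimulated genes moved in both directions. Of 40 tested, 4 rose and 2 fell, 12 (30%) did not overlap with number 2 higher and 3 (7.5%) with number 2 lower, beside 0.374% and 0.18% called and 16.2% and 16.6% without overlap over all genes. The median log2 difference was 0.20, and it ranged from 0.015 to 0.41 when 1 library was left out. IFI44L had 42.8, 46.9, 77.5 and 87.3 CPM (0.88 ± 0.16, edgeR adjusted p = 0.0188), and PARP14, an ADP-ribosyltransferase, had 126, 107, 200 and 182 CPM (0.72 ± 0.13, edgeR adjusted p = 0.013). Both were higher in CT2 and U2 without overlap. MX1, an antiviral GTPase (0.49 ± 0.08), and LY6E (0.43 ± 0.08) also rose, with edgeR adjusted p of 0.00941 and 0.0169.

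ISG20, an exonuclease, had 105, 157, 56.8 and 98.7 CPM and fell (−0.78 ± 0.14, edgeR adjusted p = 0.0169). IFI27 had 635, 1075, 486 and 771 CPM and fell (−0.43 ± 0.09, edgeR adjusted p = 0.0338); its groups overlapped, since U2 lay above CT1. Under RLE scaling, without the block and in each fit without 1 library, no gene of the interferon list was called. In the unfolded protein response list, XBP1, its central transcription factor, was the only 1 of 20 called, at 133, 144, 88.8 and 83.3 CPM (−0.69 ± 0.14, edgeR adjusted p = 0.0288). It was lower in both number 2 libraries without overlap. XBP1 was called in 5 of the 15 alternative fits. Among those it did not pass were RLE scaling, limma-voom, the GC and length offset and the fit without the block.

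Mitosis, replication, heat shock and MYC target lists had medians below 0. Of their 129 genes edgeR called 0 and DESeq2 called 1. In the edgeR test 27 had an unadjusted p under 0.05, a larger share than over all genes. The 34 mitosis genes had a median of −0.22, and 12 (35.3%) were without overlap and lower in number 2, beside 16.6% of all genes. MAD2L1, of the spindle checkpoint, had 30.4, 40.7, 23.0 and 14.6 CPM (−0.93 ± 0.26, edgeR adjusted p = 0.167). The 44 replication and G1/S genes had a median of −0.088 with 12 (27.3%) lower without overlap, and the 14 heat shock and polyubiquitin genes a median of −0.16 with 7 (50%) lower. HSPH1, a cytosolic chaperone, had 57.9, 63.4, 49.5 and 33.3 CPM (−0.57 ± 0.20, edgeR adjusted p = 0.341).

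The 40 MYC targets of ribosome biogenesis and metabolism had a median of −0.086, with 12 (30%) lower without overlap and none called. PPAT, the first enzyme of purine synthesis, had 20.8, 27.2, 13.5 and 11.04 CPM (−0.96 ± 0.28, edgeR adjusted p = 0.189). In the serine, glycine and asparagine synthesis list, PHGDH, the first enzyme of serine synthesis, had 46.1, 50.7, 29.8 and 35.9 CPM (−0.56 ± 0.19, edgeR adjusted p = 0.329). Both were lower in CT2 and U2 without overlap, and neither passed. The medians of the mitosis, replication, heat shock and MYC lists stayed below 0 in all 15 alternative fits.

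**Figure D5:**
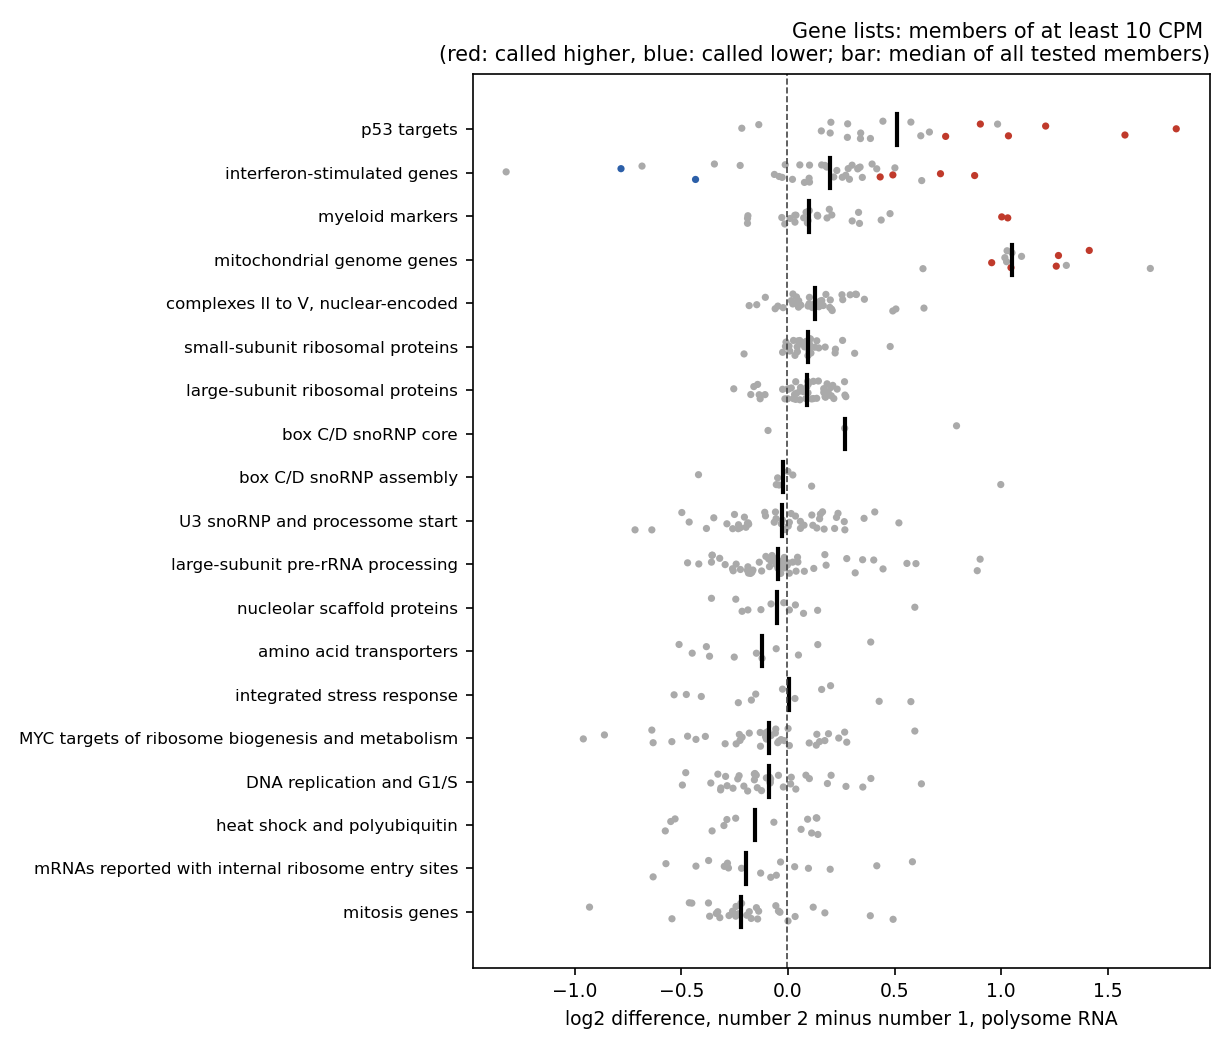
Log2 difference of number 2 minus number 1 in polysome RNA (x axis) for the members of 19 gene lists (y axis) whose higher group reached 10 CPM; red members were called higher, blue called lower and grey not called. Black bars are the medians of all tested members, from −0.22 for mitosis genes to 1.05 for mitochondrial genome genes, and the dashed line is the median of all genes tested; FBL is left out.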

How the data were processed

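Whole-number counts per gene were deposited for each library. Per the submitters' processing notes, the authors used Trimmomatic 0.38, Bowtie2, HTSeq 0.11.2 and GRCh38; the sources used here do not give the annotation release, the strand setting or the version of Bowtie2. HTSeq drops reads that fit more than 1 gene (6.57% to 6.79% of polysome reads). IDs were matched to GENCODE v29 (58275 of 58395). Genes were filtered with filterByExpr, scaled by TMM and tested with edgeR 4.0.16 quasi-likelihood (R 4.3.3) on the 4 polysome counts, with label and number as terms, 1 residual degree of freedom and Benjamini-Hochberg adjustment over all genes; SEs are the log2 difference over the root of F. DESeq2 1.42.0 and limma 3.58.1 were alternatives. The fits were also run on simulated counts drawn without a CT or U difference. That run does not bear on how the calls depend on the block. Members and lists were chosen with earlier results of these data known. Named were the 12 largest called changes each way (10 CPM or more on average in whichever group was higher, same sign in both labels), every snoRNP gene, up to 4 called members per direction of other lists, and list ends; 1 p53 target list member is not reported here and not plotted singly.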

Additional observations from a re-analysis of the deposited data

Results flagged for a closer look

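For 4 genes of at least 10 CPM, the number difference in polysome RNA exceeded that in input RNA by the test of that difference. The excess on the log2 scale was 1.38 for MT-RNR1, 0.86 for MT-RNR2, 0.64 for HMGB2 and 1.06 for MT-ND2. Of these, 3 are themselves part of the mitochondrial count share, which was largest in U2 among the polysome libraries. That share is therefore no separate measurement for them, and its part was not tested.

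For 10 gene lists the median number difference had opposite signs within CT and within U; each rests on 1 pair of libraries and the difference between labels was not tested. The values within CT and within U were 0.11 and −0.14 for box C/D assembly factors, −0.10 and 0.020 for ribosomal RNA base methyltransferases, −0.049 and 0.041 for mitochondrial ribosomal proteins, and 0.044 and −0.026 for elongation and termination factors. They were −0.090 and 0.12 for aminoacyl-tRNA synthetases, −0.16 and 0.054 for amino acid transporters, −0.19 and 0.026 for serine, glycine and asparagine synthesis, and 0.010 and −0.0060 for proteasome subunits. They were −0.094 and 0.016 for the unfolded protein response and 0.050 and −0.30 for the HOX leukaemia program, whose members include many at low counts.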

How the results depend on the processing

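Against 80 genes called in polysome RNA, 10 were called with RLE scaling, 239 with no filter on low counts, 182 with a filter at a mean of 10 CPM, 125 by DESeq2, 53 by limma-voom, 17 with all 8 libraries in 1 fit and 36 with a GC and length offset beside the replicate block. With no replicate block 0 were called by edgeR. Leaving out 1 library, with the block dropped, gave 0 to 48. The bias-adjusted edgeR test, chosen after seeing the data, called 8. Against 801 in input RNA, DESeq2 called 328, no replicate block 6, all 8 libraries (chosen after seeing the data) 3, and leaving out 1 library gave 0 to 166. Against 6 genes that differed between fractions, no lysate block gave 0. The causes were not tested. Libraries of 1 label share only that label, which is not known to pair cultures.

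Of the 80 genes, 77 kept their direction in every one of the 15 alternatives that fitted them, 73 of them in all 15, and 3 (EIF5B, TMSB4X and MIR142HG) reversed in 1. EIF5B reversed to −0.094 in the fit without CT2 and without the block, and was 1.26 in the one without U2 and without the block; within each label it was higher in number 2. C3, CCL5, CHI3L1 and SLX1B were called in 11 of 15, the most of any gene, and FDXR, FZD4, S100A8 and S100A9 in 10. The 22.2 M counts of U2 limit precision for low genes, which is why no fold is given for genes at or near 0 in a group.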

Other observations

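Outside the lists and the naming rule, several further genes passed the edgeR test in polysome RNA and are described here after their values were seen. MYBPH, a myosin-binding protein, had 1524, 1548, 2204 and 2273 CPM in CT1, U1, CT2 and U2, with libraries of a number close together and both number 2 libraries higher (log2 difference 0.54 ± 0.07, edgeR adjusted p = 0.00112). CORO1A, an actin-binding protein of blood cells (0.49 ± 0.09), ITGB2, the beta chain of leukocyte integrins (0.65 ± 0.11), MSN, which ties actin to the membrane (0.34 ± 0.07), and TPM4, a tropomyosin (0.62 ± 0.12), were higher, with edgeR adjusted p of 0.013, 0.0135, 0.026 and 0.0174. GRN, the secreted progranulin, was higher as well (0.66 ± 0.11, edgeR adjusted p = 0.0108), while the protease inhibitor SERPINA1 was lower (−0.83 ± 0.17, edgeR adjusted p = 0.0279).

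RNPS1, a splicing regulator of the exon junction complex, had 395, 335, 259 and 199 CPM and was lower (−0.68 ± 0.11, edgeR adjusted p = 0.0069). PNP, a purine salvage enzyme, had 104, 131, 58.7 and 72.5 CPM (−0.84 ± 0.15, edgeR adjusted p = 0.013), and CHEK2, a DNA damage kinase, had 94.7, 107, 55.1 and 62.4 CPM (−0.78 ± 0.15, edgeR adjusted p = 0.026). All 3 were lower in both number 2 libraries without overlap. MIR142HG, the host transcript of miR-142, had 71.5, 22.9, 146 and 45.8 CPM: it was higher in number 2 within each label, but the label difference was larger and the groups overlapped.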
